A study of Mus musculus with 2 samples.

Results

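The genes described here encode phosphatases and their regulatory subunits. They were taken from a list of peaks of BUD31 RNA immunoprecipitation sequencing (RIP-seq), in which RNA bound to a protein is recovered with an antibody and sequenced. The members are the genes whose rows are typed as protein-coding and whose symbol starts with Ppp, Ppm1, Ptpn, Ptpr, Dusp or Inpp. The rule found 28 genes with 244 peaks, out of 2710 genes and 14411 peaks of that type and 3258 genes and 16331 peaks in all. They are 24.8% of the 113 genes with such symbols on the chromosomes where the list has any peak, beside 18.1% of all protein-coding genes there.

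BUD31 is a protein of the spliceosome. The assay used germ cells from the testis of C57BL/6J mice at postnatal day 14, isolated by enzymatic digestion, and the labels name no genotype or treatment beyond this. There was 1 library of RNA recovered with the antibody and 1 input library, for which 10% of total RNA was taken. The peak list is the authors' and belongs to the series as a whole. It gives positions on mm10 and an annotation class for each peak, and no count, fold or score, so depth is unknown. What can be described for a gene is the number, width, position and class of its peaks. No replicate check or test was possible with 1 library a group. Intervals are Wilson 95% intervals, which hold the counting error of genes or peaks and nothing else.

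Protein phosphatases remove phosphate from serine, threonine or tyrosine and so oppose the kinases of the cell cycle and of signalling. PP1 and PP2A are holoenzymes in which a few catalytic subunits are directed by many regulatory subunits. Receptor and non-receptor tyrosine phosphatases and dual-specificity phosphatases share a cysteine-based mechanism, and the inositol phosphatases act on lipids and soluble inositol phosphates. In the testis PP1 and PP2A act in meiotic division and in sperm, and the splicing reaction itself needs cycles of phosphorylation and dephosphorylation.

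Most of the 28 members were regulatory subunits or tyrosine phosphatases. PP1 genes numbered 10 (62 peaks), PP2A genes 5 (65 peaks), non-receptor tyrosine phosphatases 6 (82 peaks) and receptor tyrosine phosphatases 3 (6 peaks). The metal-dependent PPM family had 2 members (8 peaks). Ppp4r4, a regulatory subunit of PP4, was the only member of the other PPP families (18 peaks), and Dusp12 was the only dual-specificity member (3 peaks). No inositol phosphatase gene had a peak of the protein-coding type. The 4 genes Ptpn4, Ppp1r12b, Ppp2r5a and Ppp2r5e held 119 of the 244 peaks (48.8%), and the 8 genes with at least 10 peaks held 175 (71.7%). Those 8 are 7.08% of the 113 genes, beside 2.48% of all coding genes. The median length was 29.8 kb for the 113 and 17.9 kb for all coding genes, and the part of length was not tested. By contrast 5 members had 1 peak each.

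**Figure D1:**
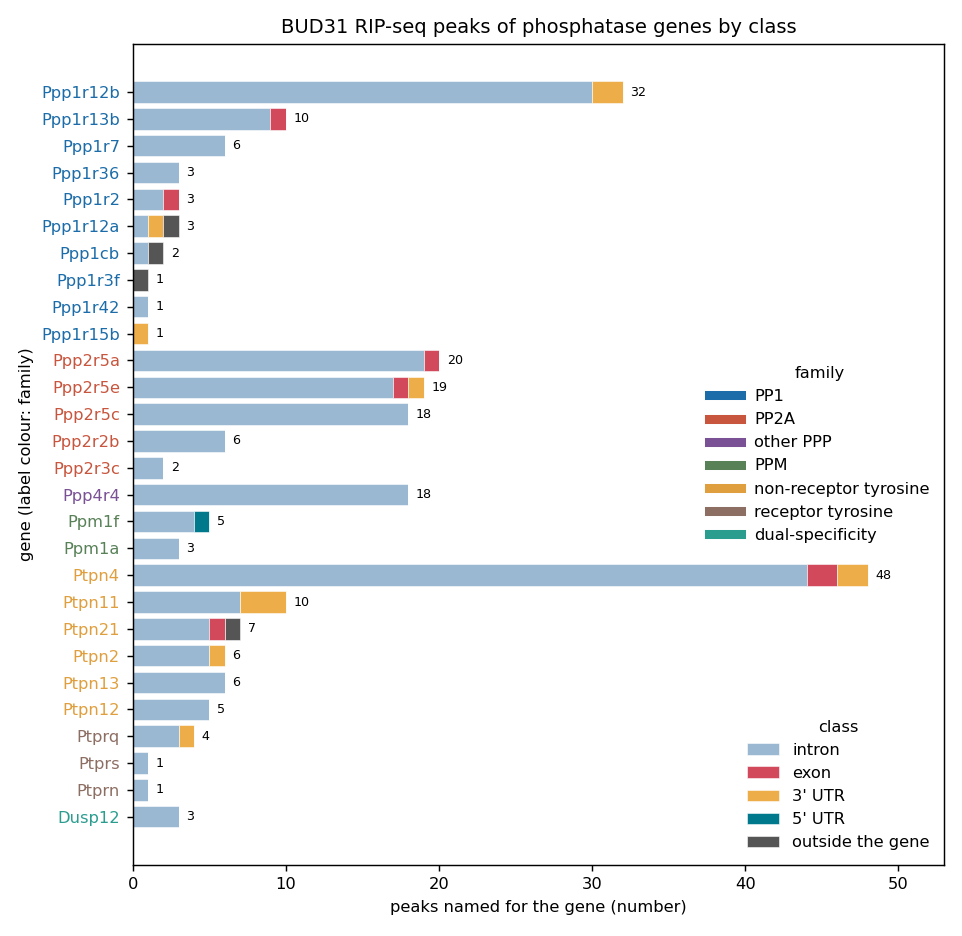
Peaks named for each of the 28 phosphatase genes (x axis, number of peaks), with bar colours for the authors' annotation class (grey: outside the gene by class) and label colours for the family. Ptpn4 has 48 peaks and Ppp1r12b 32, while Ppp1r15b, Ppp1r42, Ppp1r3f, Ptprn and Ptprs have 1 each, and intron is the main class in most of the genes.

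Start sites lay under a peak in 4 members of 21 with a start window in the table (19.0%), beside 12.9% of 2134 coding genes with a peak and a window. The 12.9% lay inside the Wilson interval of the members' share, so no excess is shown. The upstream sequences of the 4 members are shown because the peak there reaches past the start of a transcript. A start window was found in the RefSeq table (build GRCm38.p6, the assembly of mm10) for those 21 members, with 26 windows. Each sequence below is the 250 bases before the start, on the strand of the gene, and all 250 bases of each lay under the peak. Capitals mark 3 promoter motifs, each searched on both strands. The GC box was searched as GGGCGG. The CCAAT box was searched by the letters of its name. The TATA box was searched as TATAAA. Where 2 matches touch, as in Ppm1f, the capitals run on. Of 32851 windows in the table, 32.7% held a GC box, 33.8% a CCAAT box and 12.4% a TATA box. A match describes the letters and not a bound site.
Ppp1r13b, chr12:111908056-111908305, minus strand: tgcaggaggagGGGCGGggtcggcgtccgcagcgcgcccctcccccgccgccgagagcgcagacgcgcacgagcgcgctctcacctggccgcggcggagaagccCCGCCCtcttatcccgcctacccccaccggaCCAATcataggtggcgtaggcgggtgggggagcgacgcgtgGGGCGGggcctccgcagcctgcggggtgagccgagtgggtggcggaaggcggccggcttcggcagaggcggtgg
Ppm1f, chr16:16896219-16896468, plus strand: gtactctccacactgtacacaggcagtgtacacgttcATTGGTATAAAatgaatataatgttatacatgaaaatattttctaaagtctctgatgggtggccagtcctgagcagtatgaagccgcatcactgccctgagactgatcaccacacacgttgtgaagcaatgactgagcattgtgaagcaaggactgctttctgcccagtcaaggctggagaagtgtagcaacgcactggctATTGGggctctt
Ppp1r12b internal start, chr1:134803843-134804092, minus strand: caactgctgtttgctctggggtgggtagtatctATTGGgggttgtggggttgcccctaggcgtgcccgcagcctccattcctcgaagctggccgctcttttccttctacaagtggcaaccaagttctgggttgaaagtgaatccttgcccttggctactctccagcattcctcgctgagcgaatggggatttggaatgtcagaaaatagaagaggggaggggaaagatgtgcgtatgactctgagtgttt
Ppp2r5c internal start, chr12:110485547-110485796, plus strand: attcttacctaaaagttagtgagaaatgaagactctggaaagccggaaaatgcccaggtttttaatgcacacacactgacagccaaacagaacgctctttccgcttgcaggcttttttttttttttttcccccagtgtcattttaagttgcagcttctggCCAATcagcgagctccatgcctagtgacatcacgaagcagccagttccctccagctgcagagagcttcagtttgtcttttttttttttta
The window of Ppp1r13b has 76.8% G and C and 3 GC boxes, above the interquartile range of 48% to 64.4% over 14101 windows of coding genes, and that of Ppm1f has 46% with 1 TATA box and 2 CCAAT boxes. The start lies at the 5′ end of the gene in Ppm1f and 0.064 kb inside it in Ppp1r13b. The peak over the Ppp1r13b start, annotated as intron, is 7790 bp wide at chr12:111900891-111908680. Over the Ppm1f start lies a 2600 bp peak at chr16:16895401-16898000, which is the only 5′ UTR peak among the members. The windows of Ppp1r12b (52.8% G and C) and Ppp2r5c (43.2%) belong to starts 152 kb and 38.7 kb inside the gene. In both of these genes the first peak from the 5′ end lies downstream of that end. The 2 windows also lie inside the long noncoding RNA genes Gm32670 and Gm19605, and the peaks over them are classed as intron. The signal there therefore cannot be assigned to the internal start.

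A peak near the 5′ end of Ppp1r12b also covered a microRNA gene, whose sequence is shown because the RNA under that peak could come from it. The RNA could also come from the intron or from the long noncoding RNA gene Gm51748, which the peak overlaps over 1479 bp. The peak, at chr1:134945966-134948630, contains Gm51265 at chr1:134946234-134946299 on the minus strand, the same strand as Ppp1r12b. Capitals mark the mature miRNA in the hairpin and the seed, bases 2 to 8, in the mature sequence. No other mature miRNA in the RefSeq table has this seed.
Gm51265 hairpin: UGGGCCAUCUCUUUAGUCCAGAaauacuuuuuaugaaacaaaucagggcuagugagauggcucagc
mmu-miR-5104b-5p: uGGGCCAUcucuuuaguccaga
The list gives no strand or separate value for the miRNA, so the miRNA, Gm51748 and the intron cannot be told apart.

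Before the members are compared, the spread of the list over the genome has to be given, since it sets which phosphatase genes could be found. The reference table holds 162 coding genes with these symbols, and 48 of them, on chromosomes without any peak, were not analysed. Another, Ppp4r3a, stands in the list under its older symbol Smek1 and is therefore no member. It is described in the closing section. Of the other 113 genes 28 (24.8%, 17.7% to 33.5%) had a peak, beside 18.1% of 14867 protein-coding genes on the same chromosomes. On chromosomes 1, 5, 8, 10, 12, 16, 18 and X, called well covered since peaks were named for 10% or more of the coding genes of each, 27 of 57 phosphatase genes did (47.4%, 35.0% to 60.1%), beside 34.5% of 7352 genes. On the thinly covered chromosomes 1 of 56 did, beside 2.1%. Among these, chromosomes 4, 11 and 19 hold 7, 13 and 8 phosphatase genes, and no coding gene on them had a peak. Their genes stay in the counts of 113 and 56. The median length of the 57 phosphatase genes on the well covered chromosomes was 41.3 kb, against 21.5 kb over all coding genes on them. Genes under 30 kb had peaks less often than longer ones.

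Shares were therefore also taken by gene length. Under 10 kb 1 of 9 phosphatase genes had a peak, beside 14.1% of all coding genes on the well covered chromosomes. From 10 to 30 kb 7 of 15 did (46.7%), beside 34.8%. From 30 to 60 kb the count was 6 of 8 (75%, 40.9% to 92.9%), beside 48.1%. From 60 to 120 kb it was 6 of 12 (50%), beside 53.6%, and over 120 kb 7 of 13 (53.8%), beside 47.8%. In each of the 5 groups the background lay inside the Wilson interval of the phosphatase genes.

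Chromosomes 1 and 12 held most of the peaks. On chromosome 1 were 8 members with 112 peaks (45.9%), and on chromosome 12 another 8 with 80 peaks (32.8%), where all coding genes had 30.04% and 13.6% of their peaks. On chromosome 1 these were 8 of 20 phosphatase genes (40%), beside 38.8% of all coding genes. Of the 9 phosphatase genes on chromosome 12 all but Ptprn2 had a peak, where 42.7% of all coding genes did. On chromosome 8 none of 5 phosphatase genes had one, where 13.7% of all coding genes did.

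Families differed in how often their genes had a peak. On the well covered chromosomes a peak was found in 10 of 15 PP1 genes (66.7%, 41.7% to 84.8%), 5 of 7 PP2A genes (71.4%, 35.9% to 91.8%) and 6 of 9 non-receptor tyrosine phosphatase genes (66.7%, 35.4% to 87.9%). For the receptor tyrosine phosphatases the count was 2 of 7 (28.6%, 8.22% to 64.1%), for the PPM family 2 of 4, for the dual-specificity phosphatases 1 of 10 (10%, 1.79% to 40.4%) and for the inositol phosphatases 0 of 4 (up to 49.0%). The intervals of all these families overlap one another except those of PP1 and the dual-specificity genes. Those 2 families also differ in length, with a median of 23.7 kb for PP1 and 5.89 kb for the dual-specificity genes, and the part of length in the difference was not tested.

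**Figure D2:**
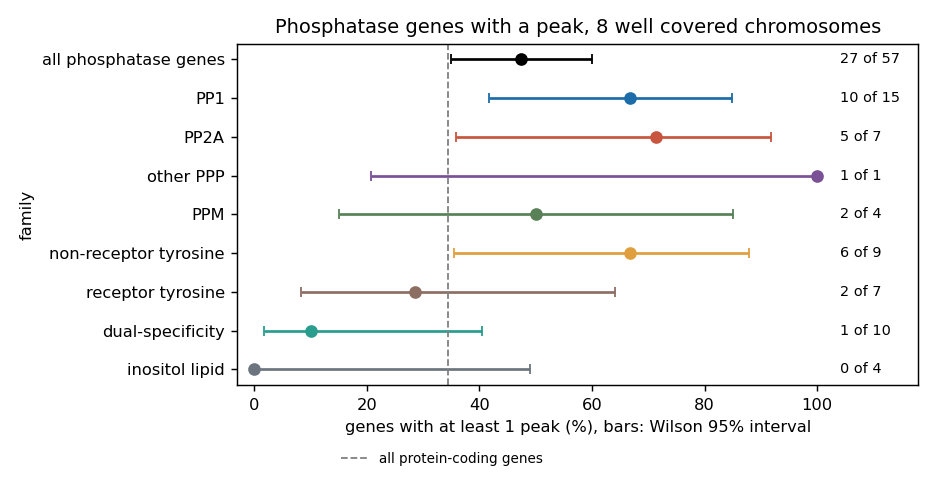
Share of the phosphatase genes of each family with at least 1 peak (x axis, percent) on the 8 well covered chromosomes, with Wilson 95% intervals as bars, the counts at the right and a dashed line at 34.5% for all protein-coding genes. PP1, PP2A and the non-receptor tyrosine phosphatases lie at 66.7% to 71.4%, and the dual-specificity genes at 10%.

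Set against summed gene length, the families also differed in peaks, and the part of length in this was not tested. Taken over all their genes on the well covered chromosomes, with and without peaks, the 7 receptor tyrosine phosphatase genes span 2022 kb and had 5 peaks (0.247 per 100 kb), while the 9 non-receptor genes span 784 kb and had 82 (10.5 per 100 kb). PP1 genes had 8.76 peaks per 100 kb and PP2A genes 7.45, beside 3.32 over all coding genes. Peaks covered 25.1% of the summed length of the non-receptor tyrosine phosphatase genes, 18.4% of PP2A, 17.5% of PP1, 2.31% of the dual-specificity and 0.129% of the receptor tyrosine phosphatase genes, beside 8.28% over all coding genes. A single gene held much of the 3 highest values: the share was 11.9% without Ptpn4 for the non-receptor tyrosine phosphatases, 8.71% without Ppp2r5e for PP2A and 11.8% without Ppp1r12b for PP1. In the receptor family Ptprn2 (792 kb), Ptprk (523 kb) and Ptprr (257 kb) had no peak, and the members with peaks were themselves covered over 1.17% to 1.25% of their length. The inositol phosphatase gene Inpp4b (792 kb) and Ppm1h (268 kb) had none either.

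**Figure D3:**
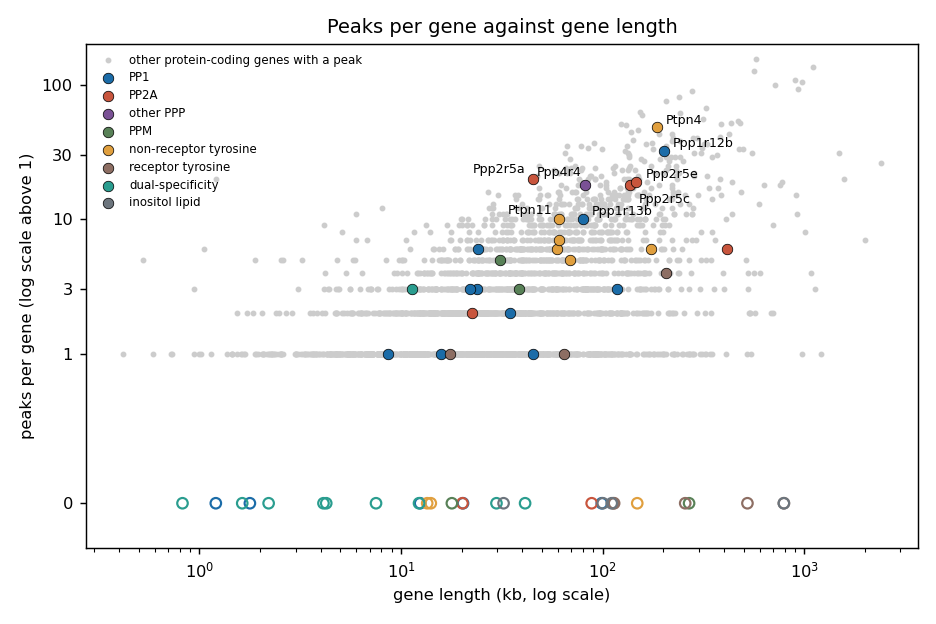
Peaks per gene (y axis, log scale above 1) against gene length in kb (x axis, log scale) for the 28 phosphatase genes, filled by family, and for other protein-coding genes with a peak in grey. Open circles at 0 are the 30 phosphatase genes on well covered chromosomes without a peak, among them Ptprn2, Ptprk, Ptprr, Inpp4b and Ppm1h at over 200 kb.

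Few catalytic subunits of the PPP families could be examined. Of 11 such genes 6 lie on chromosomes with peaks, and 1 of these, the PP1 beta catalytic subunit gene Ppp1cb, had a peak (16.7%, 3.01% to 56.4%), beside 18.1% of all coding genes. On the well covered chromosomes it was 1 of 3, beside 34.5%. Ppp1cb carried 2 peaks, a 4200 bp intron peak and a 5800 bp peak at chr5:32500401-32506200 that is annotated as intergenic and covers 0 bp of the gene. Ppp1cc, the PP1 gamma gene whose testis isoform is needed for sperm formation, lies on the same chromosome and had none, as did Ppp2cb on chromosome 8. Ppp1ca, Ppp2ca and Ppp6c also had none but lie on the thinly covered chromosomes 19, 11 and 2. On chromosomes 19 and 11 no coding gene had a peak, so the absence at Ppp1ca and Ppp2ca says nothing about them. The other 5, on chromosomes 3, 7 and 14, were not analysed here.

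Among PP1 regulatory subunits Ppp1r12b led. It encodes a myosin phosphatase targeting subunit, MYPT2, which directs PP1 to myosin light chains. The gene, at chr1:134754658-134955963 (201 kb), carried 32 peaks of 205 to 6355 bp with a median of 1333 bp, 30 in introns and 2 in the 3′ UTR, over 31.7% of its length. The peaks fell into 2 stretches. Of the 32, 8 lay in the first 20% of the gene, 4 between 20% and 60%, and 20 in the last 40%. The longest gap between neighbours was 37720 bp, inside the poor stretch. One of the 3′ UTR peaks, of 5945 bp, spans the 3′ end of the gene, and the other, of 615 bp at chr1:134833626-134834240, is annotated to another transcript and lies inside the gene. Of the 32 peaks, 9 also lie over the long noncoding RNA genes Gm32670 or Gm51748, with which they share the signal in a list without strand. The related Ppp1r12a (MYPT1) on chromosome 10, 117.9 kb long, had 3 peaks over 1.51%. These were a 200 bp intron peak, a 1600 bp peak in the 3′ UTR at its 3′ end and a 200 bp peak just downstream.

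Other PP1 regulators carried fewer peaks. Ppp1r13b, which encodes ASPP1, a partner of p53, had 10 of 205 to 7790 bp over 23.0% of 79.7 kb, 9 in introns and 1 in an exon, and 7 of the 10 lay in the first 40% of the gene. Ppp1r7 (SDS22), a PP1 maturation factor, had 6 intron peaks over 26.5% of 24.0 kb. Ppp1r2 encodes inhibitor-2 and had 3, the widest of 9400 bp, over 47.2%. Ppp1r36, a testis-expressed gene, had 3 intron peaks of 9020, 4100 and 3485 bp that are 205 bp apart. Together they covered 75.5% of its 22 kb, the highest share among the 28 members. Ppp1r15b, an eIF2-alpha phosphatase subunit, had 1 peak of 615 bp in its 3′ UTR. Ppp1r42 had 1 intron peak of 615 bp. The 690 bp peak of Ppp1r3f, a glycogen targeting subunit, was annotated as downstream and overlaps 159 bp of the gene.

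All 3 PP2A B′ subunit genes on well covered chromosomes were rich in peaks. B′ subunits direct PP2A to substrates that include the shugoshin-protected cohesin of centromeres. Ppp2r5a had 20 peaks, Ppp2r5e 19 and Ppp2r5c 18, where 4.91% of coding genes on these chromosomes had at least 10. The part of gene length in these counts was not tested. The other 2 genes of the group, Ppp2r5b and Ppp2r5d, lie on the thinly covered chromosomes 19 and 17 and had none. On chromosome 19 no coding gene had a peak.

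Near-equal counts went with unequal widths. Peaks of Ppp2r5a were 205 to 1435 bp wide with a median of 410 bp, and covered 20.5% of 45.1 kb at chr1:191351981-191397041. Those of Ppp2r5c were 205 to 10865 bp with a median of 820 bp, and covered 25.5% of 136 kb at chr12:110447144-110583075. Those of Ppp2r5e were 205 to 20705 bp with a median of 3485 bp, and covered 66.5% of 147 kb at chr12:75449463-75596237. The median width of all coding peaks was 1025 bp on chromosome 1 and 2255 bp on chromosome 12, so the peaks of Ppp2r5a and Ppp2r5c were narrower than the middle of their chromosome and those of Ppp2r5e wider.

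Ppp2r5a was densely set with narrow peaks. It had 44.4 peaks per 100 kb, rank 14 among the 368 coding genes with at least 10 peaks, against 13.2 for Ppp2r5c and 12.9 for Ppp2r5e. Only 2 of its 20 peaks lay in the first 40% of the gene, and 18 lay after it, among them 1 exon peak of 410 bp. Joining neighbours at most 1000 bp apart left 9 stretches in Ppp2r5a, 11 in Ppp2r5c and 12 in Ppp2r5e. Of the Ppp2r5e peaks 17 were in introns, 1 in an exon and 1 in the 3′ UTR, and 3 were at least 8000 bp wide. All 18 of Ppp2r5c were in introns, and 2 of them also overlap the noncoding gene Gm19605.

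The other PP2A members had few. Ppp2r2b, a B subunit of the brain, spans 414 kb on chromosome 18 and had 6 intron peaks of 400 to 5800 bp over 2.94%. Ppp2r3c (G5PR), a B″ subunit, had 2 intron peaks over 32.0% of 22.4 kb. Ppp2r2c, another B subunit gene of 88.2 kb, had none.

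Ppp4r4 binds the catalytic subunit of PP4, a phosphatase of DNA repair. It had 18 peaks, all in introns, of 205 to 6355 bp with a median of 1435 bp, over 44.0% of 81.6 kb at chr12:103532250-103613839. The peaks thinned towards the 3′ end, with 15 in the first 60% of the gene and 3 in the last 40%. A further peak of 3895 bp at its 3′ end, typed as noncoding by the transcript it names, is not counted here.

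**Figure D4:**
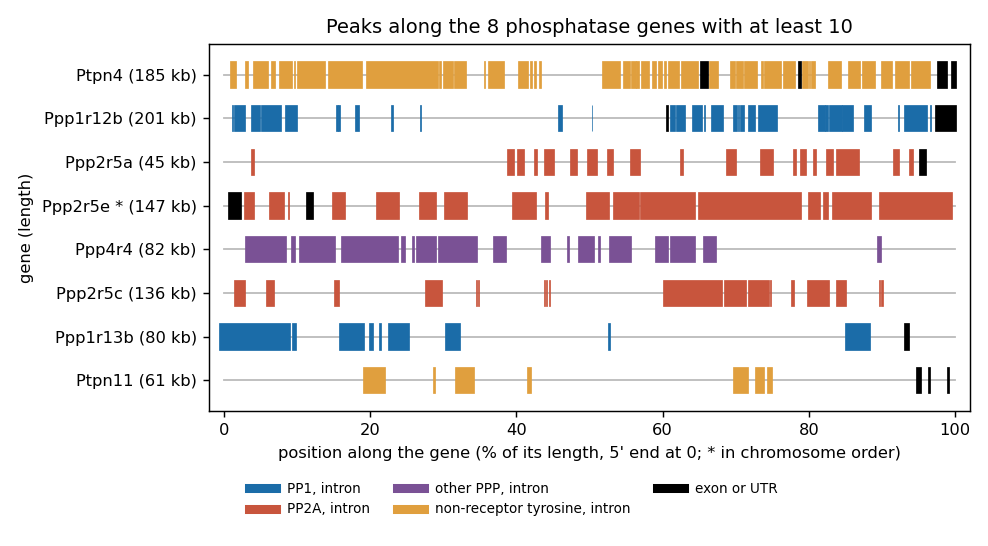
Position of each peak along the 8 phosphatase genes with at least 10 peaks (x axis, percent of gene length from the 5′ end), coloured by family for introns and black for exons and UTRs. Ppp2r5e, marked with an asterisk, is drawn in chromosome order because its strand was not in the table used. Ppp1r12b has few peaks between 20% and 60% of its length, and Ppp2r5a few before 40%.

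Over the members together the peaks were spread along the genes. In the 20 members with a known strand and a peak centre inside the gene, 17.7% of 198 peaks lay in the first 20% of the gene, 17.2%, 21.2% and 23.2% in the next ones, and 20.7% in the last 20%. Over all coding genes the first and last 20% held 19.6% and 21.0% of 10861 peaks.

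Ptpn4 had the most peaks of the 28. It encodes a cytosolic tyrosine phosphatase with a FERM and a PDZ domain. Its 48 peaks gave it rank 22 among 2691 coding genes with a peak, were 205 to 18245 bp wide with a median of 1845 bp, and covered 68.0% of 185 kb at chr1:119652467-119837585. Introns held 44, exons 2 and the 3′ UTR 2. The widest lies at chr1:119783346-119801590 and also spans the pseudogene Gm3851. Between its first and last peak the authors' running numbers count 63, and its own 48 peaks are 76.2% of them, against 36.0% for Ppp1r12b. Peaks of other genes or types in the list were not counted in these shares. Joined at gaps of at most 1000 bp, the 48 became 14 stretches.

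The other non-receptor tyrosine phosphatases followed at 5 to 10 peaks. Ptpn11, which encodes SHP2, a transducer of KIT and other receptor signals, had 10 narrow peaks of 200 to 1800 bp with a median of 400 bp, over 11.8% of 60.9 kb on chromosome 5. Its 3′ UTR held 3 of them, of 200, 200 and 400 bp, the most among the members. Ptpn2 (TC-PTP), which dampens JAK and STAT signalling, had 6 peaks of 1200 to 20000 bp with a median of 4100 bp over 62.6% of 59.1 kb on chromosome 18, 5 in introns and 1 in the 3′ UTR. Ptpn21 had 7 over 12.5%, of which 1 was in an exon and 1 downstream. Ptpn13 had 6 intron peaks over 5.2% of 173 kb, and Ptpn12 (PTP-PEST) had 5 over 15.0%. Ptpn14, Ptpn18 and Ptpn7, on chromosome 1 like Ptpn4, had none.

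Receptor tyrosine phosphatases had few and narrow peaks. Ptprq, known from hair cells of the inner ear, had 4 peaks of 200 to 1200 bp over 1.17% of 206 kb, and all 4 also lie over the noncoding gene Gm36177. Ptprn, a catalytically inactive protein of secretory granules, had 1 peak of 205 bp, the width of 1 bin on that chromosome. Ptprs, on chromosome 17, had 1 of 800 bp and was the only member on a thinly covered chromosome. The median width of the 6 peaks was 500 bp, beside 1400 bp over all coding peaks. Ptprc, the CD45 gene of leukocytes, and Ptprb, of endothelium, had none. Of markers of other cells of the testis that lie on chromosomes with peaks, a peak was found in 0 of 6 for leukocytes, 0 of 5 for endothelial cells, 0 of 3 for Leydig cells, 1 of 4 for Sertoli cells and 1 of 2 for myoid cells. Of the germ cell markers there 4 of 6 had one, beside 18.1% of all coding genes: Sycp2 with 18, Mael with 14, Kit with 3 and Sycp3 with 1. Of each list 2 or 3 genes, or 1 for myoid cells, lie on well covered chromosomes, where 34.5% of all coding genes had a peak. Among these markers Sycp3, Kit, Mael and the myoid marker Myh11 had a peak. The leukocyte, endothelial, Leydig and Sertoli markers there had none. No coding gene had a peak on chromosomes 4, 11 and 19, which hold Cd68, Laptm5, Pecam1, Tek, Cyp17a1, Sox9, Acta2 and Tex14. The lack of a peak at these genes is therefore no evidence on cell types, though the counts include them. In bulk RNA fewer cells of a type and less RNA per cell cannot be told apart.

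PPM and dual-specificity genes were represented by 3 members. Ppm1a (PP2C alpha), which acts on SMAD and stress kinase signalling, had 3 intron peaks of 1435, 12915 and 8405 bp over 58.9% of 38.6 kb on chromosome 12. Ppm1f (POPX2) had 5 peaks of 1000 to 3200 bp over 34.7% of 30.9 kb, 4 in introns and the 5′ UTR peak over its start. Ppm1g and Ppm1h had none. Dusp12, an atypical dual-specificity phosphatase, had 3 intron peaks of 205, 205 and 2255 bp within 3280 bp, which became 1 stretch when joined. The MAP kinase phosphatase genes Dusp4, Dusp6, Dusp9 and Dusp10, which span 12.3, 4.26, 4.13 and 41.3 kb, had none.

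**Figure D5:**
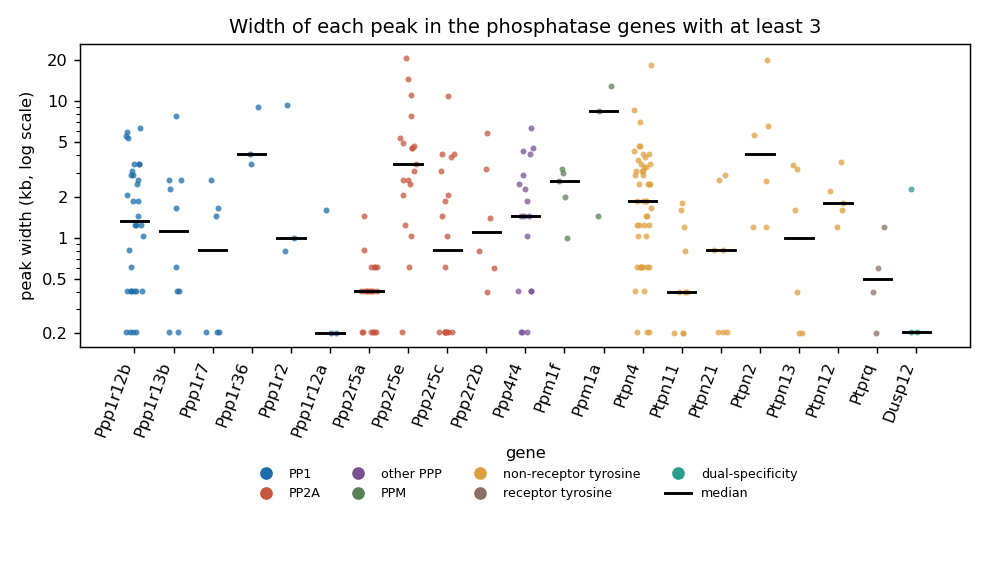
Width of every peak (y axis, kb, log scale) in the 21 phosphatase genes with at least 3 peaks, coloured by family, with the median of each gene as a black line. Medians run from 200 bp in Ppp1r12a to 8405 bp in Ppm1a, and among the PP2A genes from 410 bp in Ppp2r5a to 3485 bp in Ppp2r5e.

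By class the members' peaks were mostly intronic. Introns held 220 of the 244 (90.2%, 85.8% to 93.3%), beside 84.7% of all coding peaks. On chromosomes 1 and 12, with 192 of the 244 peaks, the share was 93.2% (88.8% to 96.0%) beside 87.9% of all coding peaks. On each of these 2 chromosomes alone the background lay inside the members' interval. Exons held 7, 3′ UTRs 12 and the 5′ UTR 1, together 8.2% (5.37% to 12.3%) beside 9.81%, and 4 peaks lay outside the gene by class (1.64% beside 5.46%). An exon or UTR peak was found in 13 of the 113 genes (11.5%), beside 7.04% of all coding genes on the same chromosomes. On well covered chromosomes it was 13 of the 57 genes (22.8%, 13.8% to 35.2%), beside 13.2% of all coding genes. The median length there was 41.3 kb for the 57 and 21.5 kb for all coding genes, and the part of length was not tested. By family the intron share was 95.4% in PP2A (87.3% to 98.4%), 85.5% in PP1 (74.7% to 92.2%) and 87.8% in the non-receptor tyrosine phosphatases (79.0% to 93.2%), and these intervals overlap. The class is given once a peak, so a wide intron peak can also cover exons.

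In width the members' peaks lay near the rest. Their median was 1435 bp (interquartile range 410 to 3075), beside 1400 bp (615 to 3075) over all coding peaks. Single-bin peaks made up 18.0% of the members' peaks and 13.1% of all coding peaks. By family the median was 1600 bp in the non-receptor tyrosine phosphatases, 1333 bp in PP1 and 820 bp in PP2A. This order rests on Ppp2r5a, without which the PP2A median was 2050 bp. At least 8000 bp wide were 11 peaks (4.51% beside 6.37%). They lay in Ppp2r5e (3), Ptpn4 (2), Ppm1a (2), Ppp2r5c, Ppp1r2, Ppp1r36 and Ptpn2. Ppp1r36, Ptpn4, Ppp2r5e, Ptpn2 and Ppm1a were also the members with at least 50% of the gene under peaks, 5 of 113 (4.42%) beside 3.3% of all coding genes, and 5 of 57 (8.77%) beside 6.66% on the well covered chromosomes. Members with a peak had a median of 5 peaks and 21.7% of their length covered, beside 3 and 13.5% over all coding genes with a peak, and their median length was 60 kb beside 37.7 kb. These contrasts depend on the chromosome. On chromosome 1 the 8 members had a median of 4.5 peaks and 22.0% covered, below the 5 peaks and 27.8% of all coding genes with a peak there. On chromosome 12 the 8 members had 8.5 peaks and 38.0%, beside 3 peaks and 29.3%.

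Phosphatases and their regulators outside the naming rule were drawn from a list of 68 genes, chosen with earlier results of these data known. On chromosomes with peaks lie 50, and 23 of these had one (46%, 33.0% to 59.6%), beside 18.1% of coding genes. On the well covered chromosomes 21 of 28 did (75%, 56.6% to 87.3%), beside 34.5% of coding genes. The 28 had a median length of 55.6 kb, beside 21.5 kb for all coding genes there. Of those coding genes 48.1% had a peak at 30 to 60 kb and 53.6% at 60 to 120 kb. The part of length in the difference was not tested. Phlpp1, a phosphatase of AKT, had 16 intron peaks over 17.0% of its length. The X-linked myotubularin genes Mtm1 and Mtmr1, which act on phosphoinositides, had 11 and 8 over 43.3% and 80.5%, and Ocrl, an inositol 5-phosphatase without the Inpp symbol, had 9 over 63.9%. Tiprl and Igbp1, which bind free PP2A catalytic subunits, had 7 and 3. Ctdp1, a phosphatase of the RNA polymerase II tail, had 7 over 52.0%, and Strn3, a striatin subunit of PP2A, had 6 over 24.0%. Cdc25c, which activates CDK1, had 2. Ppef1, on the X chromosome, had 5 over 3.87%. Eya1, Eya4, Ssh1, Ctdsp1, Pdp2, Ppef2 and Cip2a, also on well covered chromosomes, had none.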

How the data were processed

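The submitters' processing notes name TopHat2 2.0.13 and mm10. How peaks were called, at what threshold, whether against the input, and with which annotation is not given in the sources used here. Positions and classes, with no measure of strength, are what the deposited list holds, per the file headers. Libraries were grouped by their titles. Widths are whole multiples of a bin fixed per chromosome (205 bp on chromosomes 1 and 12, 230 bp on X, 200 bp on the members' other chromosomes), and the authors' running numbers reach 65288, of which 48957 have no peak in the list.

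Members were matched by gene number to a RefSeq gene table (GRCm38.p6), and all 28 matched. A gene has a peak when the authors name it in a row typed protein-coding. Covered length is the union of its peaks within the gene. Strand came from the RefSeq start windows (21 of 28 members). Overlapping windows of opposite strands were reverse complements in 1668 of 1668 pairs. Named with values were 4 given genes, members with at least 10 peaks, the 2 with the most per family, those with exon or UTR peaks, at least 50% coverage or the widest peak, and the PPP catalytic subunits; others were named after their values were seen. Members, lists, measures and the other settings listed at the start were chosen with earlier results of these data known. The measures were tested on simulated peaks. Python 3.11.15, numpy 2.4.6, pandas 2.3.3, scipy 1.17.1 and matplotlib 3.10.9 were used.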

Additional observations from a re-analysis of the deposited data

How the results depend on the processing

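The share of phosphatase genes with a peak, their median peaks and coverage, and the intron share and median width of their peaks, with the share, peaks, intron share and width of PP1, PP2A, tyrosine (both kinds) and dual-specificity genes and the share of inositol phosphatases, were recomputed under 11 settings (family coverage under the last), 8 planned with earlier results known and 3 added after seeing the data. Of 198 recomputed values 178 stayed within the interval of the reported value (Wilson for shares, order statistics or, under 6 genes, the range for medians, and 1.5 times for coverage) and 20 moved beyond it. On the well covered chromosomes alone the share with a peak was 47.4% and that of PP1 66.7%, since most other genes drop out by construction. Keeping peaks at or above the median width of their chromosome gave a median width of 3075 bp, an intron share of 93.6%, and a median of 1 peak per gene in PP2A and 1 in the dual-specificity family; in PP2A the many narrow peaks are removed. Joining neighbours at most 1000 bp apart left 142 of 244 peaks, with a median width of 2125 bp and 1 dual-specificity peak. Without Dusp12 the dual-specificity share was 0%. The PP2A median width was 2050 bp without Ppp2r5a, and that of all tyrosine phosphatases 1010 bp without Ptpn4. No paired analysis was possible because each group has 1 library and no test was made. Depth is unknown, so absence of a peak does not show absence of binding, and the part of expression level in any share was not tested.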

Other observations

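Several rows with phosphatase symbols fall outside the protein-coding type and were not counted. Inpp5d, which encodes the blood cell inositol phosphatase SHIP1, had 2 intron peaks of 615 and 820 bp on chromosome 1 named for a noncoding transcript, so with such rows counted the inositol family would have 1 gene with a peak. Ppp1r12b and Ppp4r4 each had 1 more, of 1435 and 3895 bp, annotated as exon. Ppp1r3fos, the opposite-strand transcript of Ppp1r3f on the X chromosome, had a peak of 17940 bp that also reaches over Ppp1r3f, whose own peak was 690 bp wide. The pseudogenes Ppp1r2-ps7 and Ppp4r1l-ps had 1 peak each, of 2070 bp annotated as intergenic and of 400 bp annotated as intron. Reads of pseudogenes can be shared with their parent genes, and whether this holds for these peaks was not tested.

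Ppp4r3a, listed as Smek1, encodes another regulatory subunit of PP4. It had 11 peaks, 9 of them in introns, with a median width of 1230 bp, over 38.8% of 44.3 kb at chr12:101039409-101083737. Counting it, 29 of 114 genes (25.4%) had a peak.

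Peaks of other genes also lay over members. In Ppp2r5c 3 peaks named for a long noncoding RNA, LOC102638940, of 8200, 205 and 410 bp, lay inside the gene, and in Ppp1r12b 3 named for Gm32670, of 410, 4510 and 5330 bp. A 3690 bp peak in the 3′ UTR of Tmem206 reaches into the 3′ end of Ppp2r5a. A small nucleolar RNA gene, LOC115488070 (139 bp), lies wholly under a 2665 bp intron peak of Ppp1r13b.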
